A study of Mus musculus with 27 samples.

Results

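Microglia cultured from newborn CB2-/- mice were compared with microglia from newborn wild-type mice, in both cases without any stimulus. The comparison rests on 6 of the 27 libraries of the study, taken by genotype, by the absence of an agent and by library number: 3 libraries labelled CB2-/- (2048, 2049 and 2050, strain B6.Cg-Cnr2tm1Zim) and 3 wild-type libraries (2186, 2187 and 2188, strain C57BL/6J). These CB2-/- and wild-type libraries carry separate runs of numbers, and the labels do not say whether they were cultured or prepared together. Genotype therefore cannot be told apart from culture or preparation block for any gene list below, the interferon, MHC class I and chemokine lists included. The part of such blocks was not tested. A further 3 unstimulated wild-type libraries, 3012, 3013 and 3014, carry numbers of another series and served as a second set of controls. The other 18 libraries were cells of both genotypes treated with LPS and interferon-γ, CpG or PolyI:C. They entered the fit for its estimate of the spread and the choice of tested genes. In the fit with marker levels as covariates they also helped to set the slopes of these levels. All cells were shaken from mixed glial cultures of cortex freed of meninges, grown for about 14 days, and rested for 24 h after being seeded again. The targeted Cnr2 allele is carried by the whole CB2-/- animal and so by every cell of the culture, astrocytes and fibroblasts included. How many animals or cultures stand behind the 3 libraries of a group is not given in the labels, so each p-value measures the spread between libraries, which may be technical.

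CB2, encoded by Cnr2, is a G protein-coupled receptor for endocannabinoids that is found mostly on immune cells, microglia among them, where its activation is known to dampen inflammatory responses. Resting microglia express receptors that survey the tissue, such as Cx3cr1 and P2ry12, and hold inflammatory genes low. Type I interferon signals through the receptor chains Ifnar1 and Ifnar2 to a complex that holds Stat2 and Irf9, which binds the interferon-stimulated response element in the promoters of antiviral genes, and Irf7 amplifies the response.

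Values are normalised counts, listed in library order, and differences are log2 fold changes of CB2-/- over wild type ± SE, computed from log2(value + 1), so that changes of low genes are understated. Calls were made where the p-value from limma, adjusted by Benjamini-Hochberg over 14668 tested genes, was under 0.05. Genes higher in CB2-/- cells were led by the type I interferon response, MHC class I presentation, feedback regulators and chemokines. Transcripts of the mitochondrial genome led the genes lower. These also held parts of the microglia-defining (3 of 11), disease-associated (8 of 31, with 4 higher) and homeostatic (7 of 32) lists. In total 1452 genes were called (9.9%), of which 917 were higher (6.25%) and 535 lower (3.65%) in CB2-/- cells, and 327 and 210 of these differed at least 2-fold. The total was 902, 819 and 859 without library 2049, 2187 and 2188. The called genes include 877 whose CB2-/- values all lay above the wild-type values and 500 whose values all lay below. Over all tested genes the 3 CB2-/- values lay wholly above wild type for 13.9% and wholly below for 17.1%, and the median log2 fold change was -0.05.

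Several features of the libraries accompany these counts. Summed normalised counts ran from 6341300 to 8122790 in CB2-/- libraries and from 6666200 to 10062900 in wild type, and 15941 to 18506 genes were above 0. The transcripts Gm19220, Gm26822 and Grip2 together took 1.57, 0.0741 and 20.3% of the sum in CB2-/- libraries and 6.07, 31.1 and 21.4% in wild type. Mean log2(value + 1) of the microglia-defining genes was 10.47, 10.57 and 10.51 in CB2-/- and 10.64, 11.13 and 11.16 in wild type, but single members differed widely. The colony-stimulating factor receptor gene Csf1r, 1 of 3 members called lower, stood at 11533, 12464 and 12776 in CB2-/- and 13229, 19499 and 19031 in wild type. P2ry12 and Tmem119 were far less abundant, as given with the homeostatic genes. Astrocyte and fibroblast markers were lower in CB2-/- libraries, as described with those cell types, and the main groups of genes are therefore also given from a fit with the mean level of both marker lists as covariates. These mean levels did not overlap between the compared groups. The slopes of that fit come from the spread within groups, so its values for the genotypes are extrapolated. In that fit 9.54% of tested genes were higher and 4.96% lower. Against wild type 3012 to 3014, 12.2% were higher and 10.3% lower, and these comparisons share the CB2-/- libraries with the main one.

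Cnr2 transcripts (chromosome 4, 135895394 to 135920207 in GRCm38, plus strand) were detected in all CB2-/- libraries, at 317, 411 and 454, against 172, 231 and 203 in wild type and 178, 230.0 and 233 in wild type 3012 to 3014. Every CB2-/- value lay above every wild-type value, yet the difference of 0.95 ± 0.54 was not called (adjusted p = 0.296, limma). It was called with the 6 compared libraries alone (0.95, adjusted p = 0.0374) and with the marker covariates (2.06, adjusted p = 0.00811). Counts per gene cannot tell sequence inside the targeted part of Cnr2 from sequence outside it, so the genotype rests on the labels.

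The clearest resting difference was a raised type I interferon response. Of 35 tested genes of this list 34 rose in CB2-/- cells and 0 fell, with a median log2 fold change of 1.68, against 6.25% of all tested genes. The antiviral RNA-binding gene Ifit3 (chromosome 19, 34583531 to 34588731) stood at 3839, 3997 and 3849.7 in CB2-/- and 706, 345 and 546 in wild type (2.93 ± 0.19, adjusted p = 2.14e-10, limma). Isg15, a ubiquitin-like modifier, held 1563, 1938 and 1842 against 329, 161 and 269 (2.87 ± 0.20, adjusted p = 5.42e-10, limma). Both genes were several times higher in each CB2-/- library than in any wild-type library, and the CB2-/- libraries lay close to one another. Rsad2, which encodes the antiviral enzyme viperin, stood at 2199, 2143 and 2186 against 697, 289 and 318 (2.44 ± 0.28), and Ifit1, which binds foreign RNA ends, at 1362, 1603 and 1637 against 384, 187 and 236 (2.57 ± 0.17). The OAS family gene Oas3, whose product makes the activator of RNase L, stood at 1679, 1872 and 1967 against 360.4, 287 and 271 (2.59 ± 0.20). None of these genes overlapped between the groups, and wild-type library 2186 was the highest wild-type library for each. Ifit2 (2.80), Ifit3b (3.05), the nucleic acid sensor Zbp1 (2.73), the Isg15-removing enzyme Usp18 (2.43) and the dynamin-like GTPase Mx1 (1.93) rose as well, and the call of Ifit3b was lost without library 2049, 2187 or 2188.

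The factors that carry the signal rose as well. Irf7 stood at 6737, 7871 and 7330.2 in CB2-/- cells against 1809, 1420.3 and 1582 in wild type (2.19 ± 0.09, adjusted p = 1.26e-13, limma). Stat2 was 1649.6, 1721 and 1747 against 939, 634 and 764 (1.15 ± 0.22) and Irf9 1131, 1217 and 1117 against 647, 591 and 578 (0.93 ± 0.12). All 3 were called and none overlapped between the groups. The receptor chains were not called: Ifnar1 was 1863, 1972 and 1762 against 1819, 1607 and 1725 (0.12 ± 0.09, adjusted p = 0.459, limma) and Ifnar2 1676, 1728 and 1949 against 1270.2, 1719 and 1422 (0.29 ± 0.11, adjusted p = 0.0939, limma). The interferon-β gene Ifnb1 was near 0 in both groups, at 0.746, 0.96 and 0 in CB2-/- and 0 in each wild-type library, and was not called (adjusted p = 0.758, limma). Ifitm3, a membrane protein that blocks virus entry, was the single list member not called, at 3831, 4318 and 4205 against 2529, 3996 and 2952 (0.41 ± 0.18, adjusted p = 0.159, limma).

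**Figure D1:**
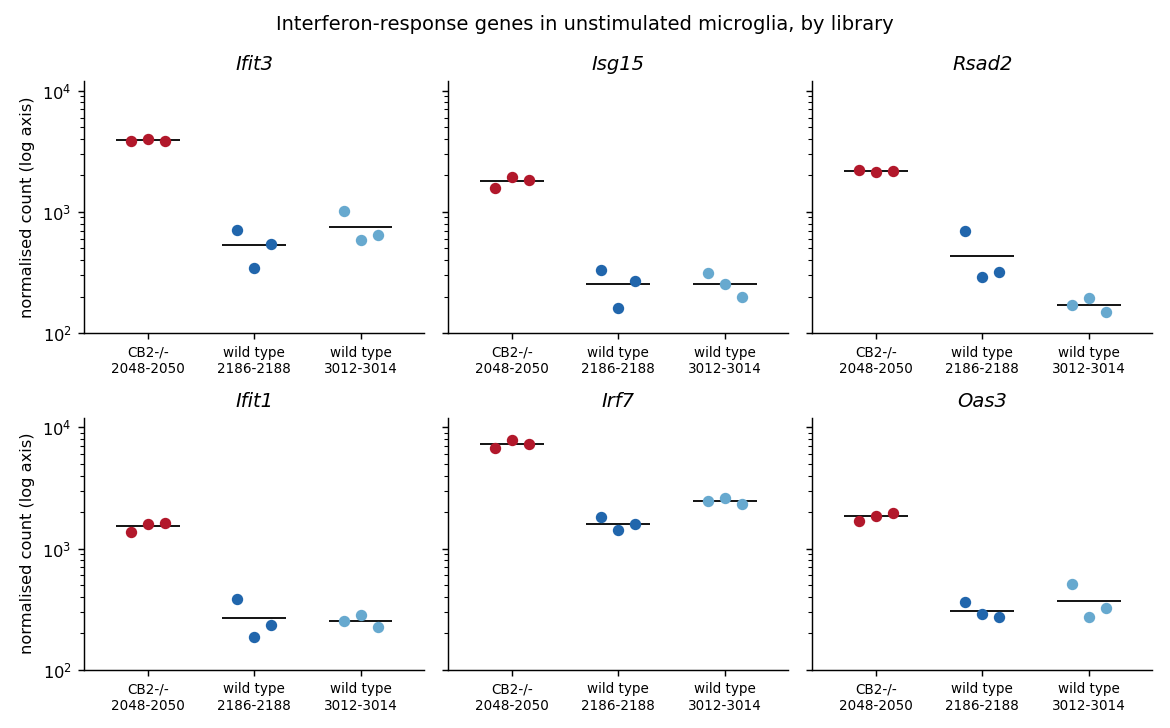
Normalised counts (log axis) of 6 interferon-response genes in 3 CB2-/- libraries and 2 sets of 3 unstimulated wild-type libraries, 1 point per library, with a black line at the group mean. In each panel the CB2-/- points lie above all wild-type points of both sets.

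The mean level of the interferon list, as mean log2(value + 1) over its members, was 10.31, 10.33 and 10.32 in the CB2-/- libraries. It was 8.77, 8.27 and 8.40 in wild type 2186 to 2188 and 8.95, 8.51 and 8.79 in wild type 3012 to 3014, so the CB2-/- libraries lay above both wild-type sets. Against wild type 3012 to 3014, 33 of 35 members rose and 0 fell, with a median of 1.44. With the marker covariates 35 of 35 rose, and with the 6 compared libraries alone, where 3.12% of genes were higher and 3.1% lower, 34 rose. Between the wild-type sets themselves (2186 to 2188 over 3012 to 3014; 6.33% of genes higher and 5.66% lower), 2 members were higher and 7 lower, with a median of -0.35. Stimulated cells give the scale: the same mean was 12.46 to 12.62 in wild type with PolyI:C and at most 8.22 in wild type with CpG, libraries 3021 to 3023 and 3018 to 3020.

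Promoters of the 5 most abundant called interferon genes whose window holds the response element are shown, because the list that these genes head had the highest share of called members. GAAANNGAAA, the core of the interferon-stimulated response element, and its reverse complement TTTCNNTTTC were searched in RefSeq promoter windows of 300 bases, 250 before and 50 after the start of each gene (GRCm38.p6). A window was available for 10259 tested genes and 24 of the 34 called members. The 170 bases before the start are printed 5′ to 3′ on the strand of the gene, with matches in capitals; overlapping matches run together.
Ifit3 (chr19:34583359-34583528, plus strand): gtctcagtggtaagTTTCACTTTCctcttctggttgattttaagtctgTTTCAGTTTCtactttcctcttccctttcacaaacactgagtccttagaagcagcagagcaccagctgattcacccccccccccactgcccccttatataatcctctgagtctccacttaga
Bst2 (chr8:71537473-71537642, minus strand): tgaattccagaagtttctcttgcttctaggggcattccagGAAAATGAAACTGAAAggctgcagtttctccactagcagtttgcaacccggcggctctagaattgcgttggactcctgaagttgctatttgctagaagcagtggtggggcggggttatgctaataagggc
Oas1a (chr5:120907526-120907695, minus strand): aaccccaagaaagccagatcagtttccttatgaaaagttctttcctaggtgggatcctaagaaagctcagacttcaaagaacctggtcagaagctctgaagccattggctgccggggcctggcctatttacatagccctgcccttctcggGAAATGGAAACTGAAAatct
Rsad2 (chr12:26456453-26456622, minus strand): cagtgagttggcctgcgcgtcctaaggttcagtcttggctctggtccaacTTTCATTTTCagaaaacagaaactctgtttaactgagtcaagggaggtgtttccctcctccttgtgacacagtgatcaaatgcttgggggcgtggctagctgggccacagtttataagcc
Trim30a (chr7:104465194-104465363, minus strand): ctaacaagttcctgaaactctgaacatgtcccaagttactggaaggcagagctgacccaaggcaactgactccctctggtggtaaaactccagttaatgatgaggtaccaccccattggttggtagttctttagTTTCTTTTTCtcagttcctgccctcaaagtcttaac

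Ifit3 holds a pair of separate matches, at -156 to -147 and -122 to -113 from the start, and Bst2 and Oas1a each hold a pair of overlapping ones. Bst2, which tethers budding virus to the cell, stood at 4356, 4961 and 4525 against 1671, 1989 and 1921 (1.31 ± 0.08). Oas1a, another OAS gene, stood at 2249, 2429 and 2316 against 839, 803 and 783 (1.53 ± 0.11), and the Trim family gene Trim30a at 2435, 2228 and 2145 against 1219, 686 and 731 (1.42 ± 0.16). All 5 printed genes were called without overlap between the groups. Some genes have several windows, and the shares given here are of genes with a window. Trim30a has a further one, and the 170 bases at chr7:104446126-104446295 hold no match. The 170 bases before Irf7, which was more abundant in CB2-/- cells (mean 7313) than any printed gene, hold no match either. Nor do those before Oasl2, Ifit2, Stat2 and Irf9. The motif was present for 13 of the 24 called interferon genes (54.2%) and for 4.11% of all genes with a window. Its share was 13.3% among the 668 genes called higher, 2.16% among the 370 called lower and 3.52% among the 9221 not called. The homeostatic list had it for 0 of 23 genes, and the ribosomal protein list for 3 of 23. The gamma-activated site core TTCNNNGAA, which is its own reverse complement, was present for 8.36% of all genes with a window. It was present for 9.43% of those called higher and 8.92% of those called lower. Among the 24 called interferon genes 5 held it (20.8%). A match is a run of letters and not a measured binding site.

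The 12 highest genes named by the size of their change included several outside the fixed lists. Ifit1bl1, an Ifit family member, held 279, 365 and 331 in CB2-/- and 15.8, 0 and 22.1 in wild type (5.47 ± 0.78, adjusted p = 3.78e-05, limma). The membrane protein gene Ms4a4c held 393, 453 and 406 against 20.4, 8.34 and 17.1 (4.76 ± 0.33), and the Schlafen gene Slfn1 697, 864 and 864 against 102, 44.2 and 27.7 (3.98 ± 0.48). For each of these genes the lowest CB2-/- value was several times the highest wild-type value. Slfn4 (3.51), the p200 family genes Ifi205 (3.75) and Ifi208 (3.76), the paired immunoglobulin-like receptor gene Pira2 (3.93) and the non-classical class I gene H2-T10 (3.39) completed the 12 highest named genes, with Ccl7, Ccl2 and Ccl12 and the pseudogene Rps26-ps1. Rps26-ps1 stood at 225, 124 and 73.3 against 6.79, 0 and 0, but at 78, 57.5 and 29.6 in wild type 3012 to 3014. All 12 were also called with the covariates. Ifit, Ifi, Slfn, Ms4a, Pira, Oas, H2 and Ccl genes have close relatives with which reads may be shared, so the value of a single member is uncertain, and the call of Slfn4 was lost without library 2187.

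Antigen presentation through MHC class I rose with it: 16 of 20 tested genes rose, 0 fell and the median was 1.13. The classical heavy chain gene H2-K1 stood at 29683, 35681 and 35287 in CB2-/- and 11922, 11258 and 11012 in wild type (1.55 ± 0.11, adjusted p = 5.42e-10, limma), and H2-D1 at 38854, 46879 and 44552 against 19754, 19547 and 19014 (1.16 ± 0.10). B2m, the shared light chain, stood at 49209, 53629.6 and 49609.8 against 25579, 19876 and 20174 (1.22 ± 0.11). Each of the 3 was higher in every CB2-/- library than in any of the 6 unstimulated wild-type libraries. The Qa region genes H2-Q6 (2.65), H2-Q7 (2.22) and H2-Q4 (1.56), the Qa-1 gene H2-T23 (1.82), the peptide transporter gene Tap1 (1.32) and the immunoproteasome subunit Psmb9 (1.46) rose too. The 16 calls stood in each fit without 1 of the 6 libraries, and against wild type 3012 to 3014 the count was 14.

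Class II presentation changed in part, with 3 of 11 tested genes higher, 0 lower and a median of 0.40. The invariant chain gene Cd74 stood at 865, 1231 and 1238 in CB2-/- against 266, 261 and 310.0 in wild type (1.98 ± 0.12, adjusted p = 4.19e-11, limma). Wild type 3012 to 3014 held more than either, at 1775, 1722 and 1871, so the sign turned with that control (-0.71). Ctss, the cathepsin that trims the invariant chain, behaved alike (0.40 and -0.55), and H2-Aa was low in all libraries, at 16.9, 12.4 and 12.2 against 0, 0 and 1.79 (3.38 ± 0.99). Cd74 was the single class II call that stood in every fit without 1 library; Ctss and H2-Aa were lost without any 1 of libraries 2048, 2049, 2050 and 2187, and the list held 1 or 2 calls without these or 2186. The class II list gave 3 higher and 2 lower, with a median of -0.50, against wild type 3012 to 3014.

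Chemokine genes were raised as well, 9 of 21 higher and 0 lower, with a median of 1.34. Ccl2, which attracts monocytes, held 2593, 2123 and 1632 in CB2-/- cells and 453, 133 and 56 in wild type (3.78 ± 0.74, adjusted p = 0.00134, limma). Its neighbours on chromosome 11 moved alike: Ccl7 held 565, 468 and 438 against 73.8, 34.1 and 1.11 (4.79 ± 0.89) and Ccl12 175, 203 and 163 against 43, 5.98 and 11 (3.55 ± 0.59). In wild type these genes varied several-fold between libraries, with library 2186 the highest, and all wild-type values stayed below the CB2-/- values. The T cell attractant Cxcl10, a classical interferon target, held 389, 354 and 319 against 64.6, 67.1 and 69.2 (2.38 ± 0.41), and was even across wild type. Cxcl3 (2.80), Cxcl11 (3.53), Ccl4 (1.34), Ccl3 (0.98) and Ccl5 (1.75) were the other calls. Ccl5 stood at 3862, 3444 and 3700.0 in wild type 3012 to 3014, as high as in CB2-/- cells (3124, 3999 and 3908), where wild type 2186 to 2188 had 999, 1161 and 1101. With the covariates 17 of 21 chemokines rose and against wild type 3012 to 3014 13 rose and 2 fell. The call of Cxcl3 was lost without any 1 of libraries 2048, 2049, 2050, 2187 and 2188, and that of Ccl3 without 2187 or 2188.

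Among proinflammatory cytokine genes 4 of 15 rose and 1 fell, and the median was 0.56. Il1b, the precursor of interleukin-1β, stood at 2063, 2189.5 and 1773 against 904, 541 and 497 (1.68 ± 0.34, adjusted p = 0.00175, limma) and Tnf at 228, 226 and 179 against 93.6, 68 and 71.8 (1.43 ± 0.21, adjusted p = 3.78e-05, limma). Il18 (1.22) and Osm rose too. Il1b was higher still in wild type 3012 to 3014, at 4712, 2831 and 3782, which reverses its sign there (-0.88), whereas Tnf was 129, 81.3 and 72.5 there (1.19). Il6 stayed low, at 16.2, 34.3 and 14.4 against 9.14, 8.7 and 1.6 (1.73 ± 0.67, adjusted p = 0.107, limma). Il23a, a subunit of interleukin-23, fell, from 22, 111 and 69.5 in wild type to 0.87, 0 and 29.2, with an overlap at library 2050. It was listed at 0 in all of wild type 3012 to 3014, and its call was lost without library 2048, 2049, 2187 or 2188, and its sign turned with that control (1.94).

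Regulators that restrain these pathways rose with them. The receptor antagonist gene Il1rn, which opposes interleukin-1, stood at 1786, 1953 and 1776 in CB2-/- cells and 546, 279.6 and 305 in wild type (2.35 ± 0.18, adjusted p = 2.26e-09, limma). Socs3, an inhibitor of JAK kinases, held 1101, 1355 and 1147 against 709, 320.1 and 304 (1.54 ± 0.23), and its relative Socs1 81.3, 83.1 and 83.9 against 29.5, 28.1 and 4.43 (2.31 ± 0.65). In the list of NF-κB and feedback regulators 10 of 22 rose and 0 fell, with a median of 0.36, and Nfkbia, the inhibitor IκBα, rose little (0.40 ± 0.09). The list gave 10 higher and 4 lower against wild type 3012 to 3014. The ubiquitin-binding inhibitor Tnip3 (1.10) and the phosphatase Dusp1 (0.63), which switches off MAP kinases, were among them, and Dusp1 was lost without library 2049, 2050 or 2188. Of 17 immediate early genes 1 rose, Fosl1 (1.74), which was lost without any 1 of libraries 2048, 2049, 2050, 2187 and 2188. The transcription factor subunits Rela, Nfkb1 and Rel were not called. Of 14 anti-inflammatory mediators 4 rose and 0 fell, and 2 rose without library 2049, 2050, 2186 or 2188. Counts of the NF-κB list were 6 without library 2049, 2050 or 2188, and Socs1 was lost without any 1 of libraries 2048, 2049, 2050 and 2188.

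Enzymes of inflammatory metabolism gave 7 of 22 genes of nitric oxide, oxidant and itaconate metabolism higher, 0 lower and a median of 0.45. Acod1, which makes itaconate, stood at 929, 969.6 and 821 against 309.9, 153 and 207 (2.07 ± 0.33, adjusted p = 0.000152, limma). Ass1, which regenerates arginine for nitric oxide synthesis, stood at 590.5, 639 and 603 against 181, 147 and 111 (2.08 ± 0.31), and the prostaglandin synthase Ptgs2 at 1059, 1055 and 1111 against 698, 177 and 134 (2.07 ± 0.50). Ptgs2 in wild-type library 2186 was several times that in 2187 and 2188, and its call was lost without either of the latter. The sulfiredoxin gene Srxn1 (0.96) rose, and Ch25h, whose product makes an oxysterol with antiviral activity, stood at 636, 564 and 564 against 256, 183 and 141 (1.64 ± 0.42). Ch25h lost its call without library 2048, 2187 or 2188. With the covariates 16 of 22 of the list were called higher and with the 6 compared libraries alone 4. Against wild type 3012 to 3014 it gave 10 higher and 4 lower, with a median of 0.16.

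**Figure D2:**
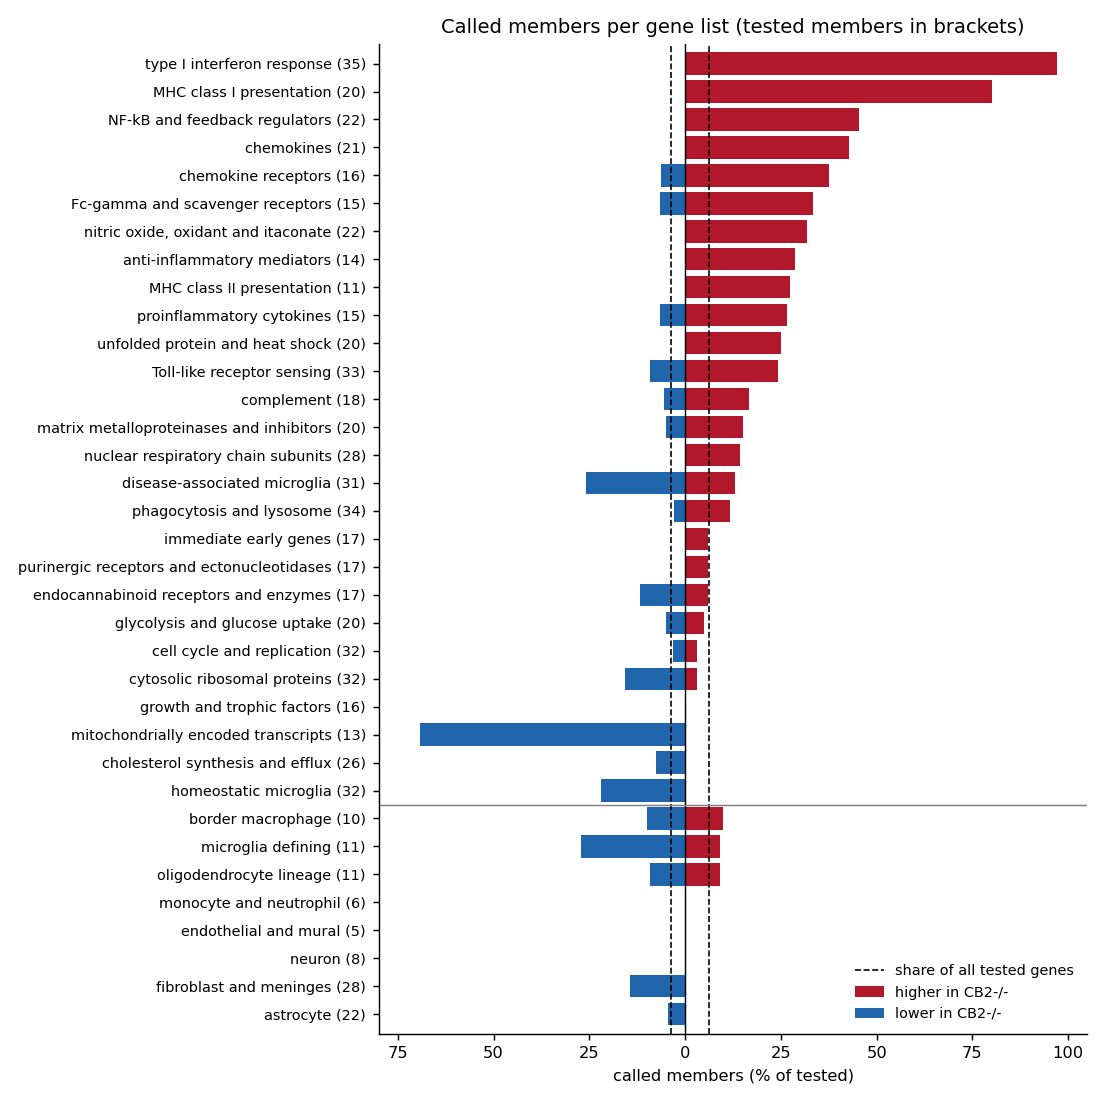
Share of the tested members of each gene list that were called higher (red, to the right) or lower (blue, to the left) in unstimulated CB2-/- cells, function lists above and cell type lists below the grey line, lists with fewer than 5 tested members left out. Dashed lines mark the shares among all tested genes, 6.25% higher and 3.65% lower. The type I interferon and MHC class I lists reach furthest to the right, and mitochondrially encoded transcripts furthest to the left.

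The receptors for the ligands used elsewhere in the study did not move as a group. In the list of Toll-like receptor sensing 8 of 33 genes rose and 3 fell, with a median of 0.11. Tlr3, the double-stranded RNA receptor, stood at 552, 364 and 492 in CB2-/- and 292, 277 and 138 in wild type (1.04 ± 0.21, adjusted p = 0.00199, limma). Tlr4, the LPS receptor, was 1121, 892 and 913 against 993, 588 and 708 (0.38 ± 0.22, adjusted p = 0.298, limma). Tlr9, the receptor for CpG DNA, fell to 179.8, 155 and 133 from 173, 315 and 270.2 (-0.66 ± 0.21, adjusted p = 0.0485, limma), with library 2048 above the wild-type library 2186. Thus 1 of these 3 receptors was higher, 1 lower and 1 not called at rest. Tlr2 (0.96), Tlr13 (0.84) and Tlr7 (0.42), the LPS coreceptor Cd14 (0.82) and the adaptor Myd88 (0.52) rose and the adaptor Ticam2 (-0.69) fell. Tlr2 and Tlr7 change sign with wild type 3012 to 3014 as the control (-0.20 and -0.58). Against wild type 3012 to 3014 the list gave 5 higher and 10 lower, with a median of -0.20, and without library 2186 it held 6 lower genes. Without library 2048, 2187 or 2188 the list held 5 higher genes, and the calls of Tlr7, Tlr9 and Cd14 were lost. Those of Tlr9 and Cd14 were also lost without 2049 or 2050.

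Receptors for chemoattractants and antibody were mixed. Of 16 chemokine receptor genes 6 rose and 1 fell, with a median of 0.40, but against wild type 3012 to 3014 there were 3 higher and 4 lower, with a median of 0.06. The formyl peptide receptor gene Fpr2 stood at 146, 179.6 and 141 against 58.3, 34.7 and 40.0 (1.81 ± 0.16), yet at 242, 223 and 268 in wild type 3012 to 3014 (-0.65), and Ccrl2 at 261, 271 and 367 against 135, 118 and 128 (1.21 ± 0.21). Among 15 Fc-γ and scavenger receptor genes 5 rose and 1 fell, and 3 rose without any 1 library other than 2186. Fcgr1, the high-affinity IgG receptor and an interferon target, stood at 5388, 5952 and 5714 against 2601, 2462 and 2354 and 2391, 2512 and 2545 in the second wild-type set (1.20 ± 0.09, adjusted p = 6.67e-10, limma). It was higher in each CB2-/- library than in any of the 6 wild-type libraries.

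Genes that mark resting microglia were lower in part. Of 32 homeostatic genes 7 fell and 0 rose, the median was -0.40, and 16 of 32 lay below wild type without overlap, against 17.1% of all genes. Cx3cr1, the fractalkine receptor, fell to 1655, 1699 and 1930.4 from 3358, 5709 and 5558 (-1.43 ± 0.19, adjusted p = 1.72e-05, limma). Gas6, a bridging ligand for cell clearance, fell to 415, 459.6 and 501 from 837, 1469 and 1468 (-1.41 ± 0.31), and Tgfbr1, a receptor of the TGF-β signal that maintains microglia, to 1334, 1068 and 1203 from 1881, 2157 and 1957 (-0.74 ± 0.15). Both wild-type sets lay above all CB2-/- libraries for these genes. Gpr34 (-1.93), Mef2a, the transcription factor Sall1 (-0.57) and Csf1r (-0.47) fell too. The defining markers P2ry12, at 59.7, 61.3 and 54.1 against 81.5, 168 and 149 (-1.11 ± 0.49, adjusted p = 0.168, limma), and Tmem119, at 143, 166 and 152 against 204, 308 and 363 (-0.88 ± 0.52, adjusted p = 0.311, limma), were not called. Wild type 3012 to 3014 held more of both, at 301, 369 and 385 and 420.5, 677 and 581. Against that set 18 of 32 fell and 3 rose, and with the covariates 4 fell and 4 rose. The count was 4 without library 2048, 2049, 2187 or 2188. The calls of Gpr34 and Csf1r were lost without each of these, that of Sall1 without 2048, 2050, 2187 or 2188, and that of Mef2a without 2049.

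Genes of disease-associated microglia split, with 4 of 31 higher and 8 lower and a median of -0.15. Lyz2, the lysozyme gene, fell to 26632, 28548 and 27389.8 from 49995, 84333 and 89667, with 180241, 176325 and 186112 in wild type 3012 to 3014 (-1.39 ± 0.16, adjusted p = 1.87e-06, limma). Apoe, the lipid carrier, fell to 144382, 161687 and 155728 from 193320.0, 327021 and 333890.0 (-0.85 ± 0.16), and Gpnmb (-1.02), the lipase gene Lpl (-0.93), the fatty acid carrier Fabp5 (-0.85) and the adhesion gene Cadm1 (-1.14) fell with it. On the raised side stood Cst7, a cystatin, at 139, 143 and 186 against 39, 20.1 and 31 (2.38 ± 0.38), Lgals3bp, at 15489.7, 17646 and 17369 against 7373, 6263 and 6198 (1.35 ± 0.14), Ch25h and B2m. Of these, Ch25h, B2m and Lgals3bp are known to be induced by interferon. Cst7 was higher in wild type 3012 to 3014, at 203, 373 and 379.6, than in CB2-/- cells, and Apoe had the opposite sign with quantile scaling (0.57).

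Microglia-defining genes, which overlap with the homeostatic list, gave 1 of 11 higher, Aif1 (0.68), and 3 lower, Cx3cr1, Csf1r and Sall1. Aif1, the marker protein Iba1, stood at 499, 679 and 565 against 269.8, 384 and 447 and at 1079, 1107 and 1359.5 in wild type 3012 to 3014, so that its sign turned with the control (-1.03). Its call was lost without library 2049, 2050, 2186 or 2187.

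Phagocytosis and lysosome genes gave 4 of 34 higher, 1 lower and a median of -0.10. Without library 2049 there were 2 higher, and the count of lower genes was 5 without 2186 and 0 without 2048, 2050, 2187 or 2188. The cathepsin gene Ctsh stood at 2708, 3152 and 2957 against 1640.4, 1749 and 2255 (0.65 ± 0.13). The cathepsin gene Ctsl fell slightly (-0.33 ± 0.09), a call lost without library 2048, 2050, 2187 or 2188. Complement genes gave 3 of 18 higher and 1 lower. C3, the central component, stood at 6219, 6433 and 5989.8 against 2925, 4384 and 3616 (0.79 ± 0.13) and C2 at 390.4, 482 and 454 against 182, 249 and 156 (1.20 ± 0.26). C3 stood at 6959, 9671 and 7482 in wild type 3012 to 3014, above CB2-/- cells (-0.36).

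Transcripts made from the mitochondrial genome were lower. Of 13 tested genes 9 fell, 0 rose, and all 13 log2 fold changes were negative, with a median of -1.0. The complex I gene mt-Nd4 fell to 2316, 1843 and 1624 from 6726, 5186 and 6792 (-1.70 ± 0.15, adjusted p = 1.46e-08, limma), and the cytochrome b gene mt-Cytb to 2162, 2025 and 1731 from 6059, 6103 and 7948 (-1.76 ± 0.14, adjusted p = 2.36e-09, limma). Both were lower in every CB2-/- library than in any of the 6 unstimulated wild-type libraries. mt-Nd4l (-2.09) and mt-Nd5 (-1.76) fell by similar amounts. The same transcripts differed between the wild-type sets: mt-Nd4 stood at 14064, 14446 and 15079 in libraries 3012 to 3014, and 11 of 13 were lower in 2186 to 2188, with a median of -1.24. The mitochondrial level thus also moved with the number series of the libraries, and the part of library preparation in the genotype difference was not tested. The 9 calls stood without any 1 library and with the covariates. Nuclear copies share sequence with some of these genes, to an extent that varied widely. Of the 31-base words of mt-Nd4l 98.9% are shared with Gm10222 on chromosome 1. For the nuclear gene sharing most words the share was 62.8% for mt-Nd4, 12.8% for mt-Nd5 and 6.55% for mt-Cytb. No other gene shared words with mt-Nd1. Among 28 nuclear subunits of the respiratory chain 4 rose and 0 fell, with a median of 0.07, and 1 rose without library 2049 or 2188.

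The counts of metabolic lists depended on the control. Of 32 ribosomal protein genes 1 rose and 5 fell, with a median of -0.16, and 17 fell without library 2186 but 1 without 2187 or 2188. Glycolysis gave 1 of 20 higher and 1 lower, cholesterol synthesis and efflux 0 of 26 higher and 2 lower, and growth factors 0 of 16 in either direction. Against wild type 3012 to 3014, however, 18 of 20 glycolysis genes were called higher, with a median of 1.69, and the batch-corrected scores gave 16 and the covariates 9. Of the cholesterol list 4 genes were called higher and 16 lower against that set, with a median of -1.40, and of the growth factors 5 higher and 1 lower. The hexokinase Hk3 (0.63) rose, the pyruvate dehydrogenase kinase Pdk1 (-0.78) and the cholesterol exporter Abca1 (-0.50) fell, and Pdk1 and Abca1 have the opposite sign against wild type 3012 to 3014 (1.02 and 0.45). Among genes of the heat shock and unfolded protein responses 5 of 20 rose and 0 fell, with the stress factors Atf4 (0.73) and Ddit3 (0.90) and the secretory regulator Xbp1 (0.57) among them. Mki67, a marker of dividing cells, fell from 36.7, 15.8 and 135 to 5.86, 3.77 and 1.22 (-3.40 ± 0.66, adjusted p = 0.00116, limma). Top2a, another such marker, was not called (-1.11 ± 1.02, adjusted p = 0.558, limma), and of 32 cell cycle genes 1 rose and 1 fell. Called or not, 26 of the 32 had a negative log2 change, with a median of -0.75. Without overlap 8 lay below wild type and 2 above, where 17.1% and 13.9% of all genes did. With the marker covariates the median was 0.01. The collagenase Mmp13 rose to 841, 1050.3 and 1145 from 695, 209 and 162 (1.81 ± 0.40), with 60.1, 45.4 and 43.5 in wild type 3012 to 3014, among 3 higher and 1 lower of 20 matrix metalloproteinase genes and inhibitors. Adam8, a surface protease of myeloid cells, was another (0.74 ± 0.14), at 21055, 23869 and 23344 against 14813, 13846 and 12297.

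In the signalling system of CB2 itself, 1 of 17 genes of endocannabinoid receptors and enzymes rose and 2 fell, against 6.25% and 3.65% of all tested genes. So few calls cannot show whether the list departs from these shares. The gene that rose was Ptgs2, which also oxidises endocannabinoids. Mgll, which degrades 2-arachidonoylglycerol, fell to 3.94, 5.29 and 0 from 22.3, 29.6 and 77.1 (-3.60 ± 0.97, adjusted p = 0.0181, limma), and stood at 0.824, 24.1 and 5.29 in wild type 3012 to 3014. Fabp5, which carries endocannabinoids inside the cell, fell to 2200.2, 2197 and 1997 from 2419, 5449.5 and 4264 (-0.85 ± 0.18). The call of Mgll was lost without library 2050 or 2188. Among 17 purinergic genes the adenosine receptor Adora2b was the single call, at 131, 156 and 129 against 75.9, 40.1 and 25.5 (1.67 ± 0.35).

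The largest falls among named genes that also held with the covariates were of diverse function. Sort1, the sorting receptor sortilin, fell to 139, 132 and 116 from 417, 551 and 639 (-2.03 ± 0.47), and Man2a2, a Golgi mannosidase, to 155, 235 and 218 from 672, 1017 and 697 (-1.96 ± 0.38). The prostaglandin dehydrogenase Hpgd fell to 488, 434 and 336 from 1094, 1417 and 1654 (-1.72 ± 0.36), and the lysosomal protease Ctsf to 73.8, 83.6 and 60.1 from 192, 271 and 374 (-1.89 ± 0.38). For these 4 genes all CB2-/- libraries lay below all 6 unstimulated wild-type libraries. The endosomal exchanger Slc9a9 (-1.93), the kinesin Kif1a (-2.16) and the enolase Eno2 (-1.83) fell too, and the call of Slc9a9 was lost without library 2048, 2049, 2187 or 2188. H19, an imprinted non-coding RNA, fell to 0.977, 3.65 and 1.43 from 51.8, 125 and 235 (-5.37 ± 1.24), and stood at 1.79, 61 and 18.8 in wild type 3012 to 3014. Its value with the covariates was -2.76 and was not called. A2m (-3.84), Atp1b2 (-3.44), Ntrk2 (-3.25), Lamb2 (-2.32) and Ltbp3 (-2.31) likewise fell but were not called with the covariates, and lost their calls without any 1 of libraries 2049, 2050, 2187 and 2188. Atp1b2 and Ntrk2 are known to be abundant in astrocytes. Lars2, the mitochondrial leucyl-tRNA synthetase, Mir6236 and the unnamed transcript AA474408 formed a separate set: Lars2 went to 3027, 1491 and 2708 from 11025, 9911 and 9998 (-2.16 ± 0.61), Mir6236 to 228, 95.1 and 166 from 832, 767 and 805 (-2.38 ± 0.69) and AA474408 to 545, 231 and 473 from 1732, 1961 and 2088 (-2.30 ± 0.61). In wild type 3012 to 3014 these stood near the CB2-/- level, Lars2 at 3803, 2101 and 1790.3, and each lost its call without library 2049, 2187 or 2188. Lars2 and Mir6236 also lost it without 2050, and Mir6236 without 2186 and with the covariates. Mir6236 is read here as the file's gene and not as a mature miRNA.

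Markers of astrocytes and fibroblasts, the other cells of a mixed glial culture, are kept apart because their level differed between the groups. Of 22 tested astrocyte markers 1 was called lower and 0 higher, but the median was -2.05 and 19 lay below wild type without overlap. Of all tested genes 17.1% lay below in this way. Gfap, the astrocyte filament protein, stood at 54.1, 111 and 48.7 in CB2-/- and 904, 1579.8 and 1211 in wild type (-4.16 ± 1.35, adjusted p = 0.0518, limma). The glutamate transporter Slc1a3, the 1 call, fell to 16.8, 22.8 and 11.1 from 106, 255 and 134 (-3.16 ± 0.73). Cpe (-1.65), Clu (-1.41), Glul (-0.50) and Vim (0.13), abundant members of the list, were not called. Fibroblast and meningeal markers gave 4 of 28 lower and 0 higher, a median of -2.68 and 22 below wild type without overlap. Col1a1, a chain of type I collagen, stood at 12.6, 15.2 and 8.31 against 297, 339.8 and 937 (-5.17 ± 1.90, adjusted p = 0.0896, limma), and fibronectin, Fn1, at 13453, 13773 and 14682 against 37135, 59808 and 49652 (-1.78 ± 0.72, adjusted p = 0.124, limma). Igfbp4 (-1.65) and Col6a1 (-4.35) were among the calls, that of Col6a1 being lost without library 2048, 2050, 2187 or 2188, when the list held 1 or 2 calls. In bulk RNA fewer cells of a type and less RNA per cell cannot be told apart.

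The spread of these markers between libraries of other groups was wide, which the shared fit takes into account. With the 6 compared libraries alone 14 astrocyte and 14 fibroblast markers were called lower. Mean log2(value + 1) of the astrocyte list was 4.94, 5.33 and 4.91 in CB2-/- libraries, 7.19, 7.42 and 7.23 in wild type and 4.35, 7.25 and 5.55 in wild type 3012 to 3014. The fibroblast list stood at 3.41, 3.92 and 2.94 in CB2-/-, 5.84, 5.92 and 6.20 in wild type and 2.00, 7.15 and 4.95 in the second set. Summed normalised counts of the 24 astrocyte markers in the file were 13580 to 15227 against 16742 to 20311, and those of the 29 fibroblast markers 14092 to 15192 against 39579 to 62777. Fn1, which was not called, made up most of the fibroblast sum in every library of both groups, so that sum mainly follows a single gene. Ntsr2 was at 0 in all 3 CB2-/- libraries, Mfap5 was at 0 in wild type 2186 to 2188, and no other marker of either list was at 0 throughout one of these groups. Wild-type library 3012 was lower in both lists than any CB2-/- library. Its interferon list stood at 8.95, below the CB2-/- libraries but the highest of the 6 unstimulated wild-type libraries. In the order 3012, 3014 and 3013 both marker lists rose while the interferon list fell (8.95, 8.79 and 8.51). These are 3 libraries of another number series, and a link between marker levels and the interferon list was not tested. Of other cell types, 0 of 8 neuronal, 0 of 5 endothelial and 0 of 6 monocyte and neutrophil markers were called, oligodendrocyte markers gave 1 higher and 1 lower of 11, and border macrophage markers 1 higher and 1 lower of 10. Called or not, 10 of the 11 oligodendrocyte markers had a negative log2 change, with a median of -0.72, and 6 lay below wild type without overlap. Likewise 7 of the 8 neuronal markers were negative, with a median of -0.90, and 3 lay below wild type without overlap. Over all genes 7941 of 14668 were negative and 17.1% lay below without overlap, and such short lists allow no close comparison with these shares. Of 2 lymphocyte markers 1 fell, the B cell gene Cd79b (-2.34), whose call was lost without library 2048, 2050, 2187 or 2188, and the 1 tested ependymal marker was not called.

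**Figure D3:**
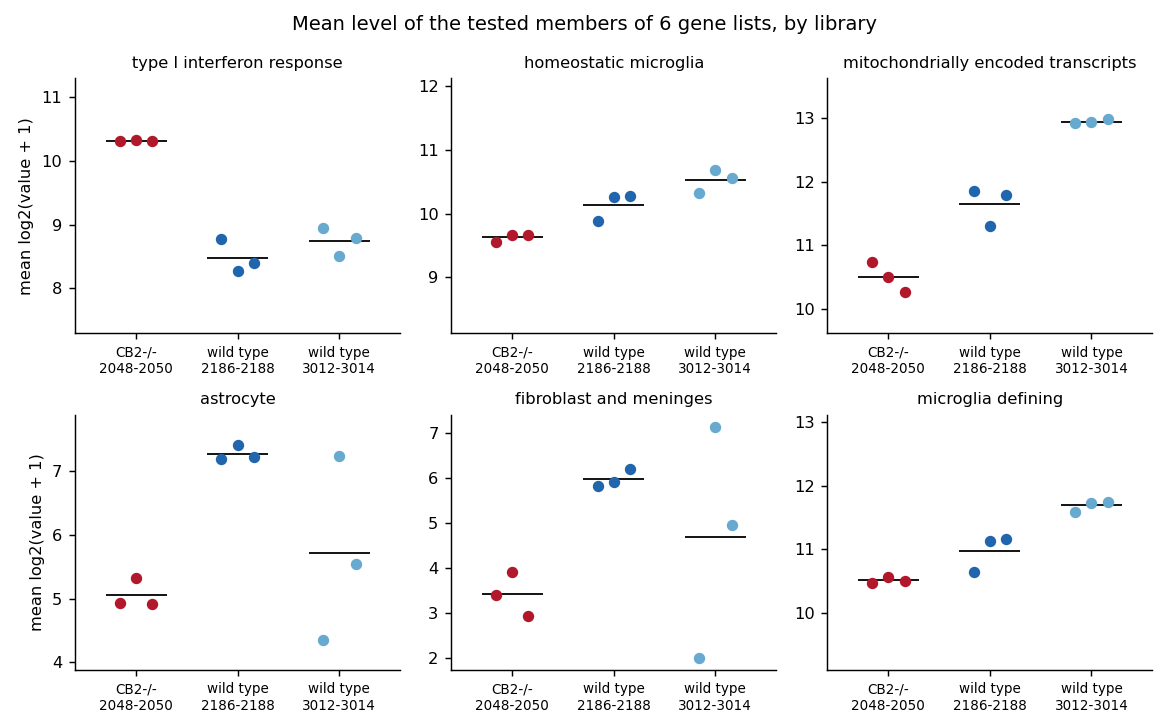
Mean log2(value + 1) of the tested members of 6 gene lists in each unstimulated library, with a line at the group mean; the vertical axes span different ranges. The interferon list is highest in CB2-/- libraries (10.31 to 10.33), while the astrocyte and fibroblast lists are high in wild type 2186 to 2188 and spread widely in wild type 3012 to 3014.

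**Figure D4:**
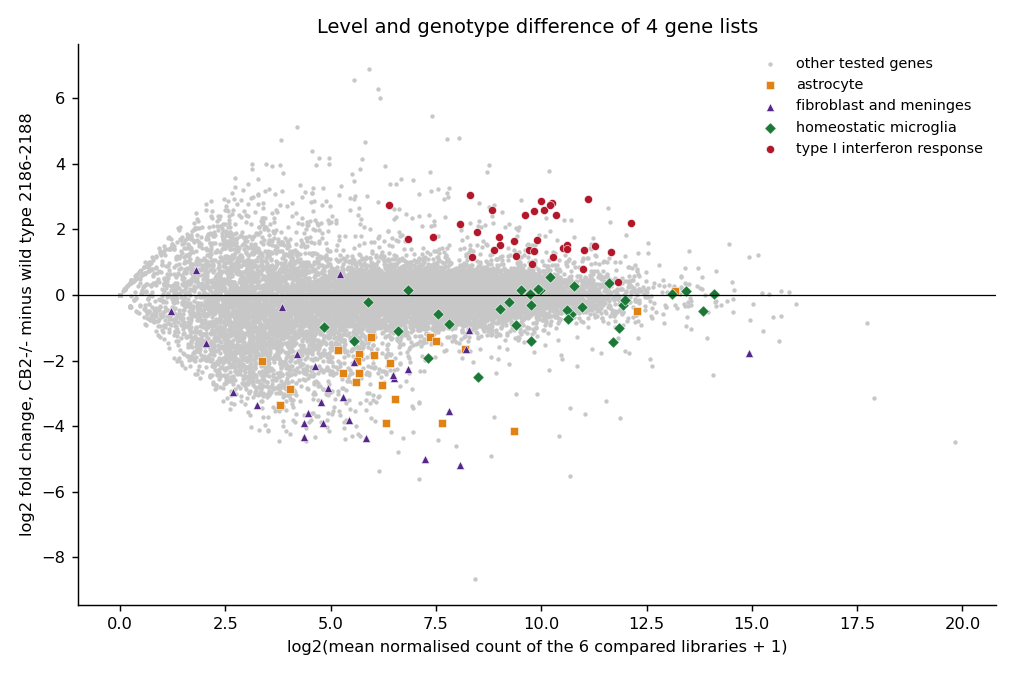
Log2 fold change of CB2-/- over wild type 2186 to 2188 against the log2 of the mean normalised count plus 1 for all tested genes, with 4 lists marked. Interferon genes (red circles) all lie above 0, astrocyte and fibroblast markers (orange squares, purple triangles) mostly below -1, and homeostatic genes (green diamonds) on both sides of 0.

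A few of the differences held in every library of the study. For 46 called genes, 27 higher and 19 lower, the 12 CB2-/- libraries and the 15 wild-type libraries did not overlap whatever the stimulus, with the caution that stimulated cells of the 2 genotypes also differ in number series. Among all 14668 tested genes, called or not, 65 were separated in this way. Lyz2 ran from 9133 to 28548 in CB2-/- and from 49995 to 186112 in wild type, and 9 of the lower genes were mitochondrially encoded. Cdkn1a, an inhibitor of the cell cycle, ran from 4270 to 8679 in CB2-/- and 864 to 3923 in wild type, and Hilpda, a lipid droplet protein, from 2309 to 4276 and 40.5 to 1700. No gene of the interferon list was in this set.

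The 2 widest separations were of gene models that share most of their sequence with genes on chromosome 4. BC002163 on chromosome 16 stood at 97.7, 113 and 143 in unstimulated CB2-/- libraries and at 0 in all 15 wild-type libraries. Gm10093 on chromosome 17 stood at 132, 153 and 122 against 4.22, 0 and 0, with 58.4 to 181 over all CB2-/- and 0 to 7.75 over all wild-type libraries. For both genes every CB2-/- library lay far above every wild-type library. In GENCODE M21 transcripts 81.0% of the 31-base words of BC002163 are shared with Ndufs5, a complex I subunit gene on chromosome 4, 12.2 Mb from Cnr2, and 86.1% of those of Gm10093 with Hdac1, a histone deacetylase gene 6.35 Mb from Cnr2. Ndufs5 itself fell to 134, 100.1 and 141 from 188, 284 and 220.1 (-0.87 ± 0.20, adjusted p = 0.00648, limma), a call lost without library 2049 or 2187, and Hdac1 stood at 257, 234 and 222 against 339, 308 and 273 (-0.36 ± 0.15, adjusted p = 0.146, limma). Reads of such pairs can be assigned to either copy, so each value is uncertain. Gm4864, which shares 26.8% of its words with Gm10093, stood at 37.3, 22.6 and 19.6 against 0 in wild type, and Gm12901, 12.6 Mb from Cnr2, at 45.5, 29.8 and 29.4 against 0.

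The share of called genes around Cnr2 was described by distance and not tested. Within 20 Mb 57 of 458 tested genes were called (12.4%), 29 higher and 28 lower, against 9.9% on the rest of the chromosome and 9.9% of all genes. The share was 10.7% of 28 genes within 1 Mb, 17.5% of 97 genes from 1 to 5 Mb, 16.2% of 105 from 5 to 10 Mb and 8.77% of 228 from 10 to 20 Mb. C77080, 6.63 Mb from Cnr2, had the largest fall, to 18.6, 1.23 and 2.39 from 228, 325 and 234, with 49.5, 34.5 and 28.4 in the second wild-type set (-5.62 ± 0.70, adjusted p = 5.14e-06, limma). Marcksl1, which encodes an actin-binding substrate of protein kinase C, rose to 1660.5, 1728 and 1698 from 639, 407 and 443 (1.80 ± 0.22) and the Golgi mannosidase Man1c1, 1.19 Mb away, fell to 541, 548 and 512 from 969.8, 1243 and 1459 (-1.18 ± 0.15). The centrosomal gene Cep85 fell by 1.03 on the log2 scale. Eloa, the closest called gene at 0.0832 Mb, rose (0.61 ± 0.11), but not against wild type 3012 to 3014 (-0.05).

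**Figure D5:**
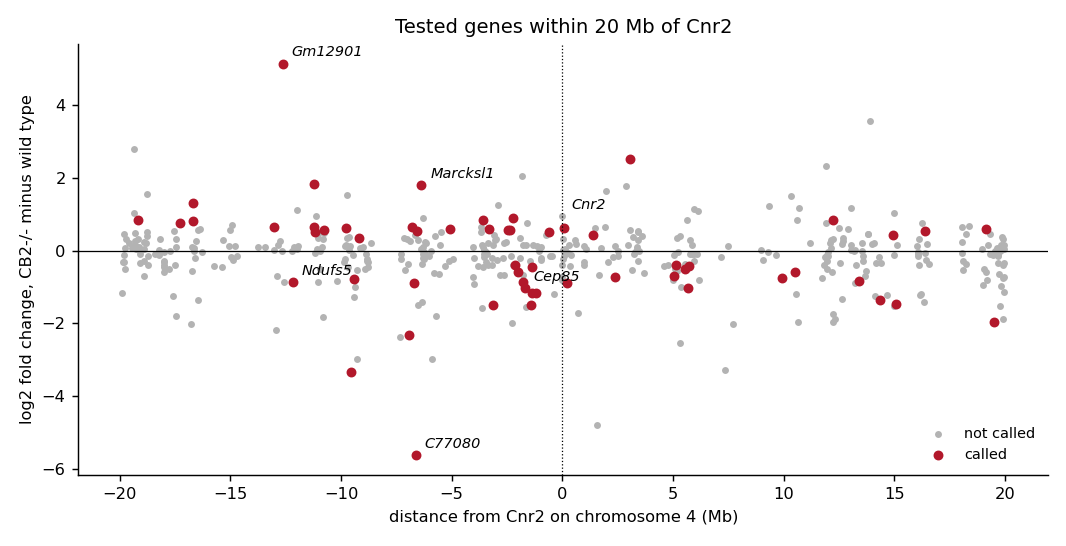
Log2 fold change of CB2-/- over wild type for the tested genes within 20 Mb of Cnr2, against their distance from it on chromosome 4; red points were called. Called genes lie on both sides of 0, with C77080 (-5.62) and Gm12901 (5.14) furthest out.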

How the data were processed

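RNA of cultured microglia was read as 75 bp single-end reads, per the labels' protocols, from TruSeq libraries or, for low input, SMART-Seq2 libraries; the protocol of each library is not stated there. DESeq2, kallisto and CASAVA 1.8 are named in the submitters' processing notes, whereas neither a genome build nor an annotation is. The main table deposited by the authors holds normalised counts, which are a signal and not whole numbers, and a second deposited table holds batch-corrected scores on a log scale, whose removed batches are not given. Whole reads could not be recovered (48.2 to 60.3% of values were whole multiples of the lowest step within a tolerance of 0.01), so no count test was run. Steps taken as 1 read put the 6 compared libraries at about 5.01 to 13.5 M reads, which limits the precision of low genes.

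Log2(value + 1) was fitted with limma 3.58.1 (R 4.3.3) over 27 libraries in 9 groups, with a variance trend and Benjamini-Hochberg adjustment, two-sided, for the 14668 of 23995 genes that reached 10 in 3 or more libraries. Code was tested on simulated data. Replicate pairs differed by far more than sampling noise, with chi-square values per degree of freedom of 16.9 to 244, and none was merged. The members and the 37 gene lists were chosen with earlier results of these data known. Named genes are the 12 largest called changes in each direction with a group mean of at least 100 and no overlap, outside the cell type lists and gene models, in the main fit and with the covariates; up to 4 called members per list with a mean of at least 50; the 6 most abundant astrocyte and fibroblast markers; Cnr2; and called genes near Cnr2. Others, such as those not called, the gene models that separate all libraries and the additional list members, were named after their values were seen. Gene positions are from GENCODE M21 (GRCm38), in which 23933 IDs matched, and shared 31-base words were counted between its transcripts. Alternatives covered the pseudocount, filters, scaling, libraries in the fit, control set, covariates and the batch-corrected scores. Some genes that this rule names are not reported here.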

Additional observations from a re-analysis of the deposited data

How the results depend on the processing

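The type I interferon count stayed at 33 to 34 of 35, that of MHC class I at 16 of 20 and that of mitochondrial transcripts at 9 of 13 in the fits without 1 library. The total of 1452 called genes became 911 with the 6 compared libraries alone, 2543 with library weights, 3300 with wild type 3012 to 3014 as the control, 2209 with all 6 wild-type libraries, 3445 with the authors' batch-corrected scores and 537 at a log2 change of at least 1. Genes called higher (917) became 457, 1442, 1795, 1926 and 327 with those 6 libraries, the weights, wild type 3012 to 3014, the batch-corrected scores and that threshold, and 1400 with the marker covariates. Genes called lower (535) became 1101 with the weights, 1505 against wild type 3012 to 3014, 999 against all 6, 1519 with the batch-corrected scores and 210 at that threshold. Leaving out 1 library gave 819 to 1976 calls, 589 to 1183 higher and 230 to 793 lower; library 2187 gave each lowest and 2186 each highest count. Cnr2 was called with the 6 libraries (0.95), the batch-corrected scores (1.05) and the covariates (2.06).

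Of 238 named genes 26 changed sign in some alternative; the cause was not tested. Against wild type 3012 to 3014 these were Mir6236 (0.49), Il23a (1.94), Abca1 (0.45), Pdk1 (1.02), Cpe (0.48), Clu (0.47), Igfbp5 (1.99) and Fblim1 (0.15), now higher, and Cst7 (-0.98), Il1b (-0.88), Cd74 (-0.71), Ctss (-0.55), C3 (-0.36), Marco (-0.016), Tlr2 (-0.20), Fpr2 (-0.65), Ctsh (-0.33), Ndufa4 (-0.38), Ndufs3 (-0.10), Aif1 (-1.03), Eloa (-0.049), Stk40 (-0.39), Ccl5 (-0.0037) and Tlr7 (-0.58), now lower. Against all 6 wild-type libraries Ctss (-0.075), Aif1 (-0.17), Tlr7 (-0.080), Pdk1 (0.12) and Igfbp5 (0.46) did, and with batch-corrected scores Aif1 (-0.064), Pdk1 (0.077), Cpe (0.26), Clu (0.39) and Igfbp5 (0.98). With the covariates Cpe (1.14), Clu (1.58), Fn1 (0.087) and Igfbp5 (1.90) did, and with quantile scaling Apoe (0.57). Cpe, Clu, Fn1 and Igfbp5 are themselves members of the marker lists whose mean levels form the covariates. Their values in that fit are thus adjusted in part for themselves and cannot judge their change. Short lists gained or lost calls without single libraries. No paired analysis was possible because the labels give library numbers and no replicate numbers shared between groups. Low genes are limited by depth.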
